A study of Mus musculus with 22 samples.

Results

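The 9 genes described here encode the peptides oxytocin, vasopressin, corticotropin-releasing hormone (CRH) and urocortin (Oxt, Avp, Crh and Ucn), receptors that bind them (Oxtr, Avpr1a, Crhr1 and Crhr2), and a secreted protein that binds CRH and urocortin (Crhbp). They were chosen by name as genes of social behaviour and of the stress axis, and all 9 were found among the 24421 genes of both deposited count tables. Oxytocin and vasopressin are made mainly by large neurons of the paraventricular and supraoptic nuclei of the hypothalamus, which release them into the blood at the posterior pituitary and within the brain, where they act on social recognition, affiliation and aggression. CRH from the paraventricular nucleus starts the hormonal response to stress through Crhr1 on pituitary cells, and it is also made by neurons of the cortex, the amygdala and other regions. Urocortin, made in few places such as the Edinger-Westphal nucleus of the midbrain, binds both CRH receptors, and the binding protein keeps CRH and urocortin from reaching them.

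The mice were of the inbred strain labelled C57B6/J OlaHsd (C57BL/6JOlaHsd in the study's methods), lived 4 to a cage and were 10 to 12 weeks old when the tube test, a series of encounters in a tube too narrow for cage mates to pass each other, gave each its rank. Total RNA of the right brain hemisphere was sequenced from 7 dominant and 7 submissive males and from 4 dominant and 4 submissive females, 3 to 4 days after the test, to compare the ranks within each sex. The library names pair a dominant with a submissive mouse in each of 7 male cages and 4 female ones, and cage mates carry the same replicate number here, so that male cage 1 holds dominant male 1 and submissive male 1. Female cages 3 and 4 are named in the libraries as groups (Gr1 and Gr2) and not by a cage number. The study's methods tell of 8 females of intermediate rank that were regrouped by 4 and given a second tube test 1 week later. The labels do not say whether Gr1 and Gr2 are these groups, so the mice of cages 3 and 4 may have a rank from the second test and a shorter time together. Males and females were deposited in separate tables and their libraries carry different project names, so that sex and project cannot be told apart. The labels list no genotype or treatment. Over all genes, the males of cages 1 to 4 and those of cages 5 to 7 lay apart, which was seen in the data and is not in the labels. The chi-square per gene between 2 submissive males, which is near 1 where only counting differs, was 2.00 to 4.23 within cages 1 to 4, 1.85 to 3.23 within cages 5 to 7 and 5.30 to 9.36 across. For dominant males it was 2.05 to 9.29, 2.94 to 5.98 and 7.15 to 16.2, with dominant male 1 far from the other 3 of its set. Each cage gave a mouse of each rank, so this split does not coincide with rank. Between 12403943 and 16488762 reads per sample were counted on genes, with a median of 14948109. Levels are given as CPM, counts relative to the library total scaled by TMM (the trimmed mean of M-values), and levels of different genes are compared only as RPKM, which is CPM per kilobase of exon. In a whole hemisphere, fewer cells of a type and less RNA per cell cannot be told apart.

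The labelled tissue was checked with genes of known cell types. Of 10 markers of brain cells, 0 were at 0 counts in all 22 samples, and the most abundant, the myelin gene Mbp, had group means of 2171 to 2602 CPM. The 8 interneuron genes, which mark inhibitory neurons, some of them CRH neurons of the cortex, summed to 951.5 to 1117.9 CPM, led by Gad1. The hypothalamus, where oxytocin and vasopressin neurons lie, was represented by 19 genes with a summed level of 26.7 CPM in dominant female 3 to 58.7 CPM in dominant male 1, led in all 4 groups by Pmch, the precursor of melanin-concentrating hormone. The 9 pituitary genes summed to 0.0661 to 1.16 CPM in 21 samples and to 16.4 CPM in submissive female 3, where prolactin (Prl) reached 11.8 CPM. Of 5 blood genes, 4 hemoglobin genes were at 0 in all 22 samples, but the tables list their exons under a further symbol as well, so these rows do not measure blood here.

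Per length, Oxt had the highest level of the 9 genes, with 11.96 ± 4.78 RPKM (SD, n = 22), above 75.0% of all genes in the tables. It was followed by the CRH receptor Crhr1 at 10.4 ± 1.05 RPKM, the binding protein Crhbp at 10.1 ± 0.872 RPKM and Avp at 8.59 ± 2.22 RPKM (SD, n = 22 each). The ranges of these 4 genes overlapped, and Oxt lay above Crhr1 in 14 of 22 samples, so their order does not hold beyond the spread between samples. Crh came next with 2.73 ± 0.437 RPKM, below Avp in 22 of 22 samples. The oxytocin receptor Oxtr had 1.46 ± 0.215 RPKM, and its range overlapped neither that of Crh nor that of Crhr2. The lowest levels were those of Crhr2 (0.563 ± 0.119 RPKM), Ucn (0.540 ± 0.469 RPKM) and the vasopressin receptor Avpr1a (0.341 ± 0.131 RPKM, above 37.8% of all genes). These last 3 genes overlapped in range.

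The members differed in how far the spread between mice of the same rank and sex exceeded that of counting reads. This ratio grows with the number of counts, so it does not rank the genes by spread relative to their level. Relative to its mean, Ucn spread more than Oxt in dominant males, with 0.453 ± 0.351 against 6.26 ± 2.22 CPM (SD, n = 7). Within groups, the variance of Oxt was 12.5 times that expected from counting reads alone in males and 20.5 times in females, the highest ratios of the 9 genes in each table. For Avp the ratio was 1.11 in males and 11.9 in females, so that male mice varied in Avp about as much as counting alone gives. Crh had ratios of 1.10 and 1.56, and Crhr2, at 0.869 and 0.615, varied no more than counting alone. The other 5 genes had ratios between 1.49, for Crhbp in females, and 4.94, for Crhr1 in males.

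**Figure D1:**
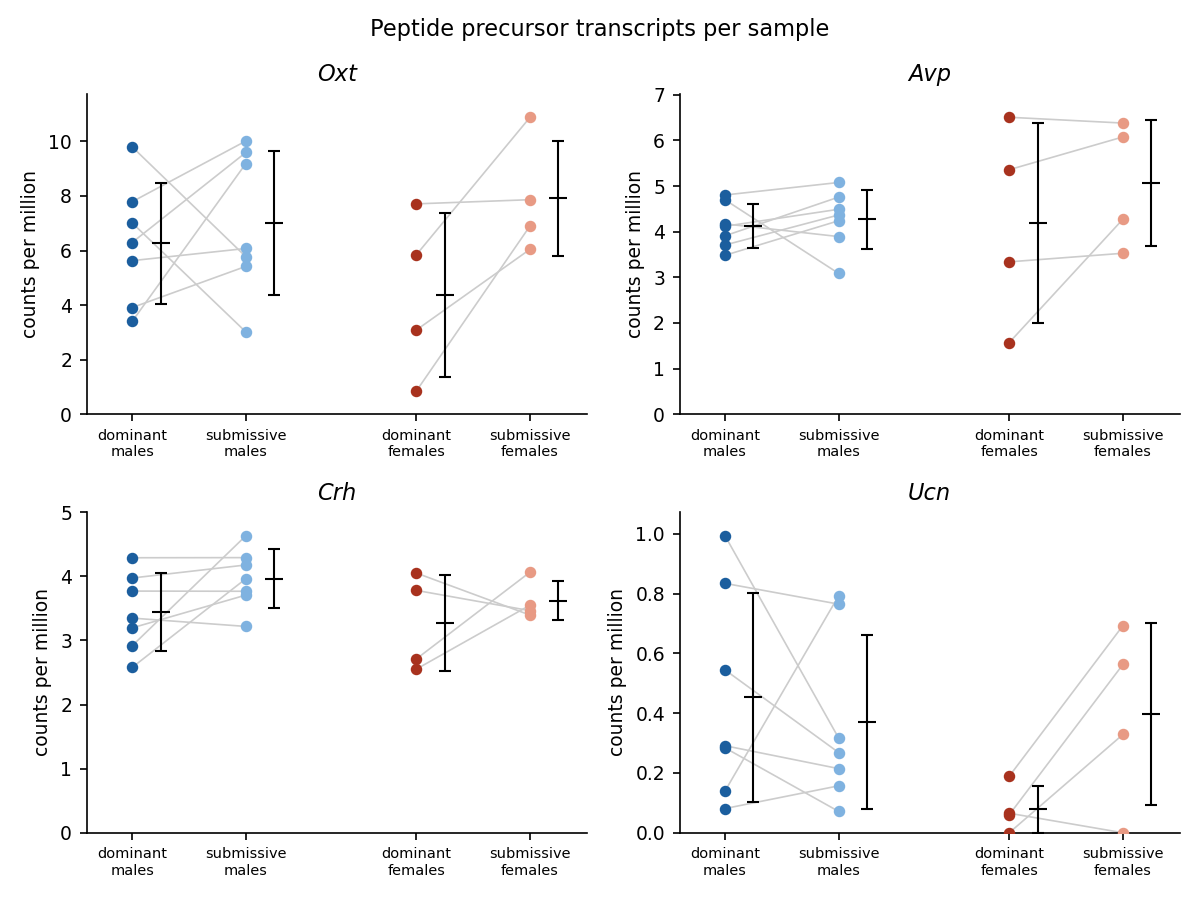
Level of the 4 peptide precursor transcripts in CPM (vertical axis) by group (horizontal axis), with points for the 22 mice, grey lines joining cage mates, and black bars for the mean and SD of a group. Dominant females range from 0.851 to 7.71 CPM in Oxt, and males of both ranks overlap in all 4 genes.

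The comparison of ranks asks whether dominant and submissive mice of a sex differ. In females, 4 of the 8 members tested, Oxt, Crhr2, Avpr1a and Crhbp, were lower in the dominant mouse of each of the 4 cages, against 1100 of 14865 genes (7.40%), and 0 were higher in each, against 1452 genes (9.77%). With ranks exchanged within cages, the exact permutation test gave each of the 4 a p of 0.125, the smallest that 4 cages allow. The female ranks did not overlap in 1 of the 8, Crhr2, and in 813 genes (5.47%). In males they overlapped in all 8 members tested, with 1 of 14737 genes (0.00679%) free of overlap, and the member with the largest fitted difference was Avpr1a, higher in the dominant mouse of 5 of 7 cages. None of these differences passed the threshold over all genes. Of the 8 members tested in females with edgeR's quasi-likelihood test, 0 had an adjusted p under 0.05, against 14 of all 14865 genes tested (0.0942%), and 2 members, Oxt and Crhr2, had an unadjusted p under 0.05, against 1563 genes (10.5%). The count of 14 was 7, 77, 1 and 3 without dominant female 1, 2, 3 or 4, and 0, 27, 0 and 3 without submissive female 1, 2, 3 or 4. In the fit of all 22 samples it was 0, within cages 1 and 2 it was 5, and within cages 3 and 4, a split chosen after seeing the data, it was 120. DESeq2 called 77 genes in females but gave the 8 members no adjusted p. There 0 of the 8 had an unadjusted p under 0.05, against 1022 of all 14865 genes. Of the 8 members tested in males with edgeR, 0 were called, as were 0 of all 14737 genes (0%), and 1 member, Avpr1a, had an unadjusted p under 0.05, against 194 genes (1.32%). DESeq2 called 0 genes in males, with 119 at an unadjusted p under 0.05, Avpr1a among them (unadjusted p = 0.0380 in DESeq2). Ucn had too few counts to be tested within a table. The median log2 fold change of the 8 members was -0.029 in males and -0.21 in females, beside medians of -0.0015 and -0.0020 over all genes tested.

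Oxt lies on chromosome 2 from 130576169 to 130577053 of the plus strand (mm10; ENSMUSG00000027301). Its 4 dominant females had 3.09, 5.84, 0.851 and 7.71 CPM and their cage mates 6.05, 10.9, 6.90 and 7.86 CPM, in the order of cages 1 to 4. Dominant female 3 stood lowest of all 22 samples with 13 counts (0.453 to 1.46 CPM, 95% exact binomial interval, which covers counting error only), while the mice of cage 4 were nearly equal. The group means were 4.37 ± 3.02 and 7.92 ± 2.11 CPM (SD, n = 4 each). The log2 fold change fitted by edgeR, given with its standard error (SE), was -0.86 (95% confidence interval -1.50 to -0.22, SE 0.307, adjusted p = 0.301). An exact permutation test of log2 CPM gave a difference of -1.17 with p = 0.114 (two-sided; the smallest p that 4 mice against 4 allow is 0.0286). Without dominant female 3 the fitted value was -0.53, and without dominant female 4 it was -1.26. The exact permutation test of log2 CPM, a separate test, gave p = 0.0286 without dominant female 4, the highest of its rank. No other female, left out singly, brought this p under 0.05. Over all alternative settings the adjusted p of the fit ran from 0.0750 to 0.995. With the cage as a term (replicate block), the fitted value was -0.90 (edgeR adjusted p = 0.103). In males Oxt ranged from 3.40 over a median of 6.29 to 9.80 CPM in dominant and from 3.02 over 6.08 to 10.01 CPM in submissive mice. The male ranks covered nearly the same range, and the fitted log2 fold change of -0.15 (SE 0.242) was smaller than its error. It was -0.33 within male cages 1 to 4 and 0.19 within male cages 5 to 7, a split chosen after seeing the data.

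The other hypothalamic genes give the setting of the Oxt values. In females 5 of the 19 hypothalamus genes passed the expression filter, 5 of 5 had a negative fitted difference and 0 passed the threshold. The summed level of the list was 43.3, 48.3, 26.7 and 50.8 CPM in dominant females 1 to 4 and 46.0, 47.9, 46.1 and 48.7 CPM in submissive females 1 to 4. Dominant female 3 was thus the lowest in the sum of this list as well, with Pmch, its most abundant gene, at 16.4 CPM against 26.4 to 29.2 CPM in the other 7 females. Its level of Sim1, a transcription factor needed to form the paraventricular and supraoptic nuclei, was 0.589 CPM against 1.57 to 2.35 CPM in the others. Trh (4.45 CPM) and Hcrt (2.95 CPM) were also lowest in this mouse. Not every gene of the list was: among dominant females, Gnrh1 was highest in this mouse (0.458 CPM) and Gal lowest in dominant female 1 (0.504 CPM). The part of such tissue differences in the Oxt values was not tested beyond leaving out this sample.

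Avp, the vasopressin precursor, lies 3623 bases from Oxt on the opposite strand (chromosome 2, 130580677 to 130582541; ENSMUSG00000037727). Dominant females had 3.34, 6.51, 1.57 and 5.36 CPM and submissive females 3.53, 6.38, 4.27 and 6.08 CPM, in the same order of cages. Cage mates had similar levels except in cage 3, where the dominant mouse had 24 counts and the submissive mouse 65. The fitted log2 fold change was -0.27 (edgeR, SE 0.265, adjusted p = 0.787), and without dominant female 3 it lost nearly all of its size (-0.0059). Male levels were more even, from 3.48 over a median of 4.12 to 4.80 CPM in dominant and from 3.09 over 4.37 to 5.08 CPM in submissive mice. Dominant males were lower in 5 of 7 cages, with a fitted log2 fold change of -0.048 (SE 0.111), and it was -0.092 within male cages 1 to 4 and 0.011 within male cages 5 to 7.

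Crh (chromosome 3, 19693401 to 19695396, minus strand; ENSMUSG00000049796) had 2.58 to 4.29 CPM in dominant males, with a median of 3.35, and 3.22 to 4.63 CPM in submissive males, with a median of 3.96. Dominant males were lower in 5 of 7 cages, and cages 5 and 6 had nearly equal mice. The mean difference in log2 CPM was -0.21 (exact permutation test, two-sided, p = 0.0903, n = 7 per rank). The fitted log2 fold change was -0.20 (edgeR, SE 0.116, adjusted p = 1.00), and it was -0.36 within male cages 1 to 4 and -0.022 within male cages 5 to 7. Leaving out dominant male 5 or submissive male 3 brought the p of the exact permutation test to 0.0338 and 0.0443. No other male, left out singly, brought it under 0.05. In females the ranks overlapped, with 3.78, 2.71, 2.55 and 4.05 CPM in the dominant mice of cages 1 to 4 against 3.46, 4.07, 3.55 and 3.40 CPM in the submissive ones. Lower values in the dominant mouse were seen in 2 of 4 cages, and the fitted log2 fold change was -0.15 (SE 0.159).

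Ucn (chromosome 5, 31137989 to 31138895, minus strand; ENSMUSG00000038676) was close to the limit of counting, with 0 to 15 counts per sample. Dominant females had 3, 1, 0 and 1 counts, and submissive females 11, 9, 5 and 0. In 3 of 4 female cages the dominant mouse had fewer, and the reverse held in cage 4, where the counts were 1 and 0. A count of 0 allows up to 0.196 CPM in dominant female 3 and up to 0.179 CPM in submissive female 4. The mean difference in log2 CPM between female ranks was -1.10 (exact permutation test, two-sided, p = 0.200, n = 4 per rank), and without submissive female 4 it was -1.66 (exact permutation test, p = 0.0286). That mouse is the submissive female with 0 counts, and no other female, left out singly, brought the p under 0.05. In males the level ran from 0.0810 over 0.291 to 0.994 CPM in dominant and from 0.0713 over 0.268 to 0.793 CPM in submissive mice. The male ranks overlapped over nearly their whole range, with a difference of 0.19 (exact permutation test, p = 0.686, n = 7 per rank).

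The Ucn values went with those of Cartpt, a neuropeptide gene that is also expressed in the Edinger-Westphal nucleus. The 4 dominant females had 9.26, 8.44, 7.86 and 9.08 CPM of Cartpt and the 4 submissive females 21.8, 19.8, 21.7 and 10.3 CPM, and submissive female 4, with 0 counts of Ucn, had the lowest Cartpt of its group. As deviations of log2 CPM from the mean of each rank and sex, Ucn and Cartpt had a Pearson's r of 0.74 over 22 samples (permutation test within groups, two-sided, p = 0.00059, adjusted over 3 relations p = 0.000885) and a Spearman's rho of 0.67 (permutation test, p = 0.00245, adjusted p = 0.00367). Without the 2 samples farthest from the median of Ucn, dominant male 7 and submissive female 4, r was 0.69 (permutation test, p = 0.00348). With both mice of a cage moved together, the adjusted p of the r over 22 samples was 0.00186 (permutation test, setting added after seeing the data). The r was 0.71 within the 14 males and 0.92 within the 8 females. Within male cages 1 to 4 it was 0.78 and within male cages 5 to 7 it was 0.67. Of the 4 Edinger-Westphal genes, 3 were tested in females and Cartpt was among the 14 of 14865 genes called (0.0942%), with a log2 fold change of -1.09 (edgeR, SE 0.165, adjusted p = 0.0266). It was called in 11 of 17 alternatives and lost without dominant female 3, submissive female 1 or submissive female 3 (adjusted p = 0.0874, 0.0898 and 0.0666 in edgeR), within cages 3 and 4 and in the fit of all 22 samples (adjusted p = 0.0908 and 0.995), while DESeq2 gave it no adjusted p. Its fitted difference ran from -1.29 to -0.92 over these alternatives. Beside it stood Cck, the most abundant gene of the list, with group means of 115 to 118 CPM. The serotonergic raphe, a neighbouring midbrain region, had 2 of its 4 tested genes among the same 0.0942%, Tph2 and Slc6a4, both lower in dominant females. Each was called in 10 of 17 alternatives, and both calls are lost without dominant female 3 or 4 or submissive female 1 or 3, with a minimum count of 50 and in the fit of all 22 samples, and DESeq2 gave neither an adjusted p. In these settings the log2 fold changes ran from -1.78 to -1.52 for Tph2 and from -1.80 to -1.44 for Slc6a4, against -1.77 for both with all 8 females. The unadjusted p was higher in each of these settings. It was 2.29e-05 for Tph2 and 1.79e-05 for Slc6a4 with all 8 females, and 0.00435 and 0.0138 in the fit of all 22 samples (edgeR). The summed raphe level was 13.2, 10.5, 4.91 and 5.69 CPM in dominant females 1 to 4 and 30.5, 23.3, 27.6 and 11.9 CPM in submissive females 1 to 4, led by Tph2. The part of the amount of midbrain tissue in the Ucn values was not tested.

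**Figure D2:**
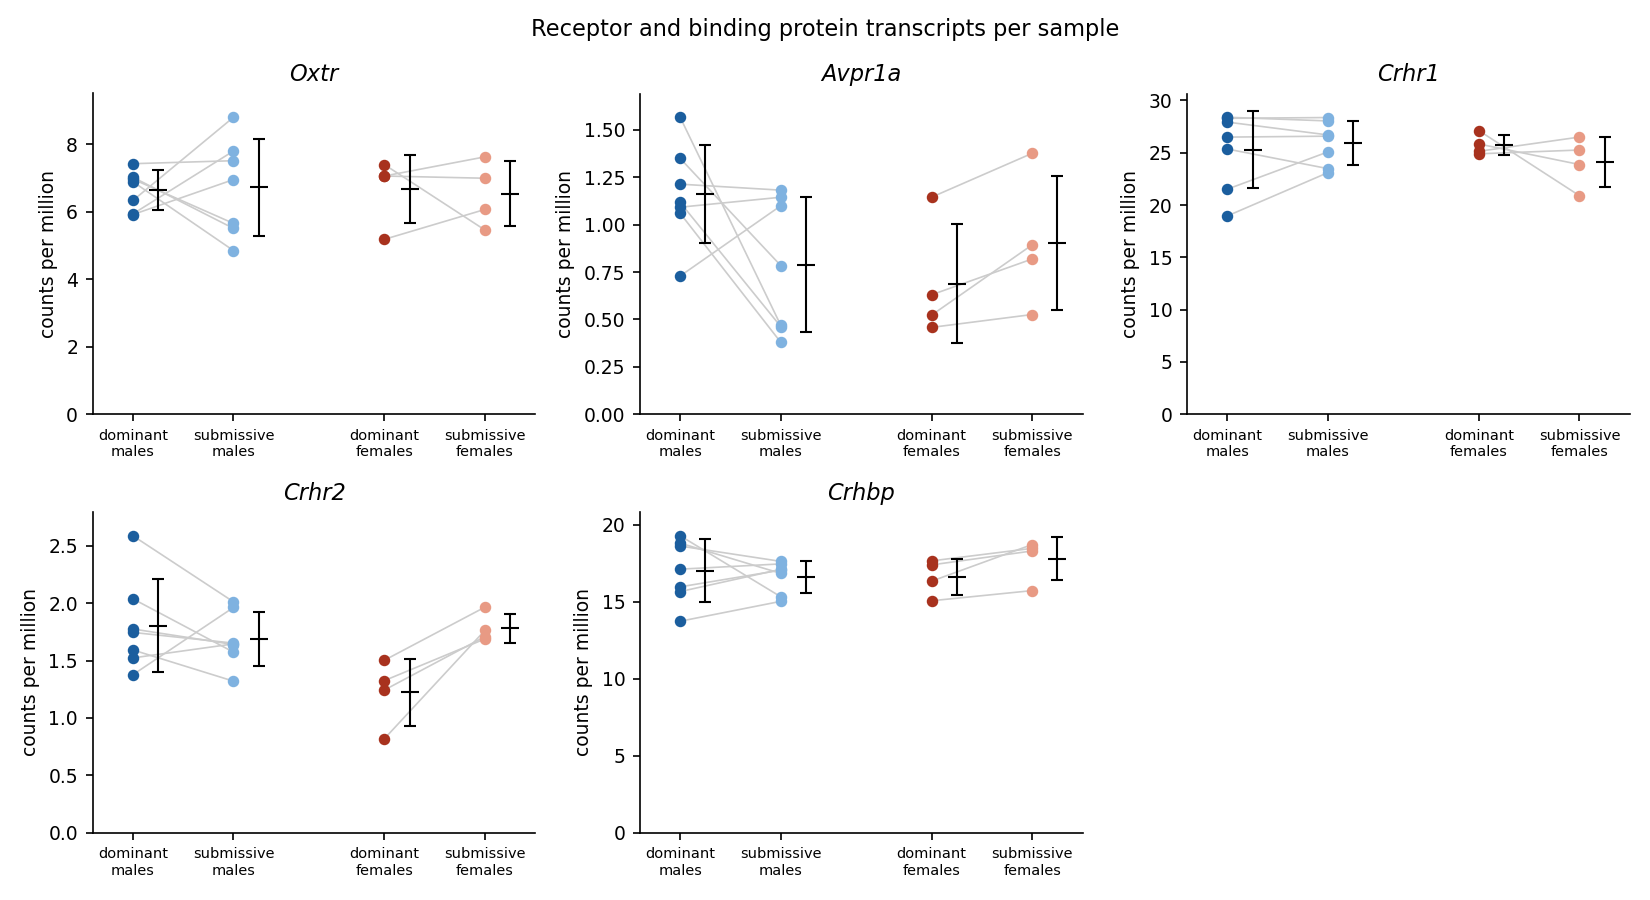
Level of the 4 receptor transcripts and of the binding protein transcript in CPM (vertical axis) by group (horizontal axis), with points for the 22 mice, grey lines joining cage mates, and black bars for the mean and SD of a group. In Crhr2 the 4 dominant females, at most 1.503 CPM, lie below the 4 submissive females, at least 1.69 CPM.

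Among the receptors, Crhr2, which binds urocortin with higher affinity than CRH, had the clearest separation of female ranks (chromosome 6, 55090049 to 55133016, minus strand; ENSMUSG00000003476). Dominant females had 0.819, 1.33, 1.24 and 1.503 CPM and submissive females 1.76, 1.69, 1.71 and 1.97 CPM. Each dominant female was thus below each submissive female, from 13 to 23 against 26 to 33 counts, and the 95% intervals of counting of single mice overlapped between the ranks. The difference in log2 CPM was -0.52 (exact permutation test, two-sided, p = 0.0286, the smallest that 4 mice against 4 allow). With ranks exchanged within cages the exact permutation test gave p = 0.125, again the smallest possible for 4 cages, and without any single submissive female p = 0.0571. The fitted log2 fold change was -0.55 (edgeR, 95% confidence interval -0.99 to -0.12, SE 0.210, adjusted p = 0.339). In males Crhr2 ranged from 1.38 over a median of 1.75 to 2.59 CPM in dominant and from 1.32 over 1.65 to 2.01 CPM in submissive mice. The dominant male was higher in 5 of 7 cages, and the fitted log2 fold change was 0.11 (SE 0.151), with -0.0069 once dominant male 5 was left out.

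Markers of the choroid plexus, the tissue that makes cerebrospinal fluid, had fitted differences with the sign of that of Crhr2 in each sex. In females 8 of 8 had a negative fitted difference, with 5 at an unadjusted p under 0.05 (10.5% of all genes) and 0 called by edgeR. In males 8 of 8 had a positive one, with 2 at an unadjusted p under 0.05 (1.32% of all genes) and 0 called. Their summed level was 805, 873, 758 and 716 CPM in dominant females 1 to 4 and 929, 683, 1034 and 969 CPM in submissive females 1 to 4, and the most abundant gene was Ttr, with 0 of the 8 genes at 0 in any sample. The cage mate with the higher sum also had the higher Crhr2 in female cages 1, 3 and 4 and in male cages 2, 3, 5, 6 and 7. The reverse held in female cage 2 and in male cages 1 and 4. Submissive female 2 was the lowest of the 8 females in this list and not in Crhr2. In male cage 5 the dominant mouse had the higher sum (1087.5 against 829 CPM) and the higher Crhr2 (2.59 against 2.01 CPM). In male cage 4 the dominant mouse had the higher sum (827 against 475 CPM) and the lower Crhr2 (1.38 against 1.96 CPM, from 17 and 25 counts). In male cage 1 it had the lower sum (604 against 659 CPM) and the higher Crhr2 (1.78 against 1.64 CPM). The part of the choroid plexus in the Crhr2 values was not tested.

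Avpr1a, the main vasopressin receptor of the brain (chromosome 10, 122448499 to 122453453, plus strand; ENSMUSG00000020123), had between 6 and 23 counts per sample. Dominant males ranged from 0.729 over a median of 1.12 to 1.57 CPM and submissive males from 0.380 over 0.784 to 1.18 CPM. The ranks overlapped, and the 3 lowest males were the submissive mice of cages 5, 6 and 7, with 7, 7 and 6 counts. The fitted log2 fold change was 0.59 (edgeR, 95% confidence interval 0.060 to 1.12, SE 0.253, adjusted p = 1.00), and the exact permutation test of log2 CPM gave 0.56 (two-sided, p = 0.0554, n = 7 per rank). The difference rested on part of the cages, with 0.068 within male cages 1 to 4 and 1.52 within male cages 5 to 7, a split chosen after seeing the data. The exact permutation test gave p = 0.0303 without dominant male 4, and p = 0.0286, 0.0297 and 0.0338 without submissive male 2, 3 or 4. Without any other single male it was not under 0.05. In females the dominant mouse was lower in 4 of 4 cages, with 0.630, 1.14, 0.458 and 0.523 CPM against 0.819, 1.38, 0.526 and 0.894 CPM. The female ranks overlapped, and the fitted log2 fold change was -0.39 (SE 0.339), with -0.76 and -0.24 without dominant female 2 or 3 and -0.12 without submissive female 2.

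The oxytocin receptor Oxtr (chromosome 6, 112473684 to 112489808, minus strand; ENSMUSG00000049112) had group means of 6.54 to 6.72 CPM, with an SD of 0.583 to 1.43 CPM. Its rank difference was near 0 in both tables, -0.019 in males (95% confidence interval -0.26 to 0.23) and 0.015 in females (-0.25 to 0.28), and its sign turned when single mice were left out. Crhr1, the receptor through which CRH drives the pituitary (chromosome 11, 104132882 to 104175518, plus strand; ENSMUSG00000018634), had group means of 24.1 to 25.9 CPM. Its rank difference was -0.038 in males (95% confidence interval -0.21 to 0.14) and 0.088 in females (-0.056 to 0.23). Dominant male 1 had the lowest Crhr1 of all 22 samples, 19.0 CPM, and without this mouse the male difference was 0.021. This mouse also had 0 counts of Pcp2, a marker of cerebellar Purkinje cells that had 19.9 to 59.8 CPM in the other samples, and its 8 cerebellum genes summed to 52.8 CPM. Whether missing cerebellum bears on its Crhr1 level was not tested.

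The binding protein Crhbp (chromosome 13, 95431376 to 95444831, minus strand; ENSMUSG00000021680) was among the steadiest members, with 13.7 to 19.3 CPM over the 22 samples. Dominant females were lower in 4 of 4 cages, by 0.061 to 0.19 on the log2 scale. The ranks overlapped, and the fitted log2 fold change was -0.11 (edgeR, SE 0.0746, adjusted p = 0.665). In males it was 0.036 (SE 0.0719), with -0.061 (SE 0.0936) within male cages 1 to 4 and 0.16 (SE 0.0840) within male cages 5 to 7. Crhbp and its ligand Crh had a Pearson's r of 0.56 over 22 samples, as deviations of log2 CPM from group means (permutation test, two-sided, p = 0.0168, adjusted p = 0.0168), and a Spearman's rho of 0.44 (permutation test, p = 0.0671, adjusted p = 0.0671). Moving both mice of a cage together gave an adjusted p of 0.0102 for r and 0.0510 for rho (permutation test, setting added after seeing the data). Without the 2 samples farthest from the median of Crh, dominant males 2 and 5, r was 0.37 (permutation test, p = 0.135). It was 0.54 in males and 0.63 in females, and within male cages 1 to 4 and 5 to 7 it was 0.40 and 0.50.

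**Figure D3:**
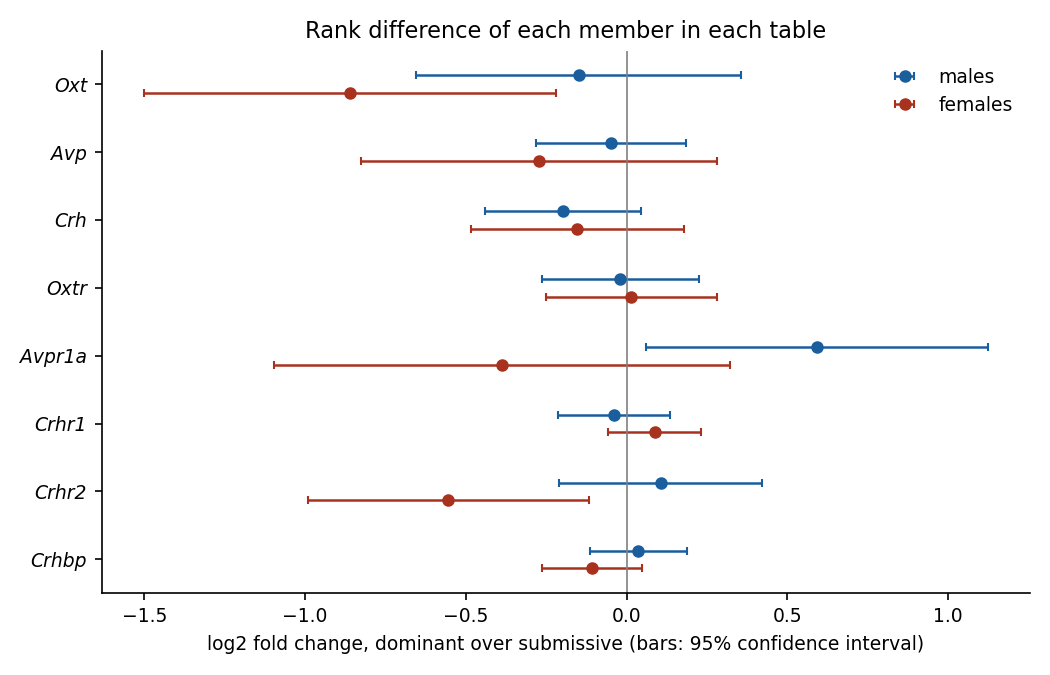
Fitted log2 fold change of dominant over submissive mice (horizontal axis) for the 8 members tested (vertical axis), in males and in females, with bars for the 95% confidence interval of the edgeR fit in each table. The intervals of Oxt and Crhr2 in females and of Avpr1a in males lie on 1 side of 0, and none of the members passed the threshold after adjustment over all genes.

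The difference between the rank effects of females and males was tested by itself over all 22 samples. For Crhr2, Avpr1a and Ucn the female effect lay below the male one, by fitted differences (female minus male) of -0.65 (SE 0.248), -0.97 (SE 0.448) and -2.60 (SE 1.148). Ucn did not pass the expression filter within either table, and its value rests on 0 to 15 counts per sample. Of the 9 members tested, 0 had an adjusted p under 0.05 in edgeR, against 0 of 15233 genes (0%), and these 3 members had an unadjusted p under 0.05, against 505 genes (3.32%). DESeq2 called 0 genes as well, with 426 at an unadjusted p under 0.05, among them Crhr2, Avpr1a and Ucn. For Oxt the difference was -0.71 (SE 0.472, 95% confidence interval -1.68 to 0.26), with -0.37 without dominant female 3 and -1.11 without dominant female 4. The adjusted p was 0.999 for all 4 genes, so that no difference between the sexes in the rank effect passed the threshold.

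Between the tables, which hold the sexes, none of the members passed the threshold, although many other genes did. The largest fitted difference was that of Ucn, at -1.24 on the log2 scale in females relative to males (edgeR, SE 0.569, adjusted p = 0.0912), from 0.0787 ± 0.0793 and 0.396 ± 0.304 CPM (SD, n = 4) in dominant and submissive females and 0.453 ± 0.351 and 0.369 ± 0.291 CPM (SD, n = 7) in dominant and submissive males. Its highest counts were those of dominant males 2 and 7 (11 and 15), submissive males 2 and 6 (11 and 12) and submissive female 1 (11). Ucn failed the expression filter within each table and passed it over 22 samples mainly through males. The filter thus favoured the sex in which this difference has Ucn higher. Of the 9 members tested, 0 had an adjusted p under 0.05, against 5512 of 15233 genes (36.2%), of which 2800 were higher (18.4%) and 2712 lower (17.8%) in females. An unadjusted p under 0.05 was found for 1 member, Ucn, and for 6843 genes (44.9%). DESeq2 called 5412 genes and 0 members. The differences of the other 8 members ran from -0.26 for Avpr1a to 0.14 for Avp, with 95% confidence intervals of -0.17 to 0.091 for Crhr1 and -0.084 to 0.14 for Crhbp at the narrow end. Oxt had a difference of -0.17 (95% confidence interval -0.65 to 0.32), from -0.0078 without dominant female 3 to -0.38 without dominant female 4, and that of Avp turned to -0.021 when dominant female 2 was left out.

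The comparison of cages asks whether cage mates resemble each other in a gene more than mice of other cages do, with rank kept in the model. In females the cage means of Avp were 3.43, 6.44, 2.92 and 5.72 CPM in cages 1 to 4, and the mates of cage 3 differed by -1.37 on the log2 scale. Oxt had 4.57, 8.36, 3.88 and 7.79 CPM in the same cages, and the lowest mean of both genes, that of cage 3, holds dominant female 3. The cage terms of neither gene passed the threshold. Of the 8 members tested in females, 0 had an adjusted p under 0.05 in edgeR, against 11 of 14865 genes (0.0740%), and 3, Avp, Oxt and Avpr1a, had an unadjusted p under 0.05, against 759 genes (5.11%). The F statistic of Avp over 3 degrees of freedom was 10.6 (unadjusted p = 0.000257, adjusted p = 0.166 in edgeR) and that of Oxt was 6.44 (unadjusted p = 0.00341, adjusted p = 0.602 in edgeR). Without the expression filter both passed (adjusted p = 2.55e-05 for Avp and 3.14e-05 for Oxt in edgeR), and DESeq2 gave an adjusted p of 1 to both, so that the adjusted p of Avp ran from 2.55e-05 to 1 over the alternatives. DESeq2 called 0 members and 5 genes in females, and the count of 11 was 31 without cage 2 and 2 without cage 3. Avpr1a was highest in cage 2 with 1.26 CPM and lowest in cage 3 with 0.492 CPM, the same cages as for Avp and Oxt.

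In males Crhr1 had the largest F statistic between cages of the 8 members tested, with cage means from 21.0 CPM in cage 1 to 28.3 CPM in cage 2. Cage 1 holds dominant male 1, with 19.0 CPM of Crhr1 against 23.1 CPM in its cage mate. The cerebellum genes summed to 52.8 and 880 CPM in the dominant and submissive males of cage 1. In those of cage 2 they summed to 956 and 984 CPM. The part of the cerebellum in these cage means was not tested. Cage mates were close, from -0.28 to 0.11 on the log2 scale (dominant minus submissive) over the 7 cages. Of the 8 members tested in males, 0 had an adjusted p under 0.05 in edgeR, against 868 of 14737 genes (5.89%), and 1, Crhr1, had an unadjusted p under 0.05, against 3284 genes (22.3%). Its F statistic over 6 degrees of freedom was 5.09 (unadjusted p = 0.00625, adjusted p = 0.0751 in edgeR), with an adjusted p of 0.0483 without the expression filter and 0.241 with DESeq2. DESeq2 called 0 members and 962 genes. The count of 868 was 1841 without cage 1, and 482, 474, 375 and 423 without cage 3, 5, 6 or 7. These cage terms include the split between cages 1 to 4 and 5 to 7. With that split kept in the model, a setting added after seeing the data, edgeR called 0 of 14737 genes between cages, with 634 at an unadjusted p under 0.05, so that likeness of cage mates beyond the split did not pass the threshold for any gene. The F statistic of Crhr1 over the remaining 5 degrees of freedom was 6.11 (unadjusted p = 0.00367, adjusted p = 0.965 in edgeR), no smaller than before, and the cages of its lowest and highest mean both lie among cages 1 to 4. For Oxt the mean of a cage ran from 4.66 CPM in cage 6 to 8.90 CPM in cage 3, and the dominant mouse lay at -1.40 on the log2 scale from its cage mate in cage 4 and at 1.18 in cage 5. Avp had cage means between 3.86 and 4.94 CPM in males.

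Oxt and Avp varied together among mice of the same rank and sex. Their deviations of log2 CPM from the group means had a Pearson's r of 0.83 over 22 samples (permutation test within groups, two-sided, p = 0.00036, adjusted over 3 relations p = 0.000885) and a Spearman's rho of 0.72 (permutation test, p = 0.0015, adjusted p = 0.00367). Cage mates share a cage, and this test exchanges mice within groups without regard to it. With both mice of a cage moved together, a setting added after seeing the data, the adjusted p of r was 0.00355 (permutation test, cages exchanged within each table), and it was 0.00868 with male cages exchanged only within cages 1 to 4 and within cages 5 to 7 (exact permutation test). Dominant female 3 was lowest in both genes, and dominant females 2 and 4 were the highest in Avp after removal of the group means. Without the 2 samples farthest from the median of Oxt, dominant females 3 and 4, r was 0.67 (permutation test, p = 0.0013). Within the 8 females r was 0.95 (exact permutation test, p = 0.0104) and within the 14 males 0.65 (permutation test, p = 0.0206), where Spearman's rho was 0.43 (permutation test, p = 0.145). It was 0.51 in male cages 1 to 4 (exact permutation test, p = 0.222) and 0.82 in male cages 5 to 7 (exact permutation test, p = 0.111). Without both mice of female cage 3 r was 0.72 over 20 samples.

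**Figure D4:**
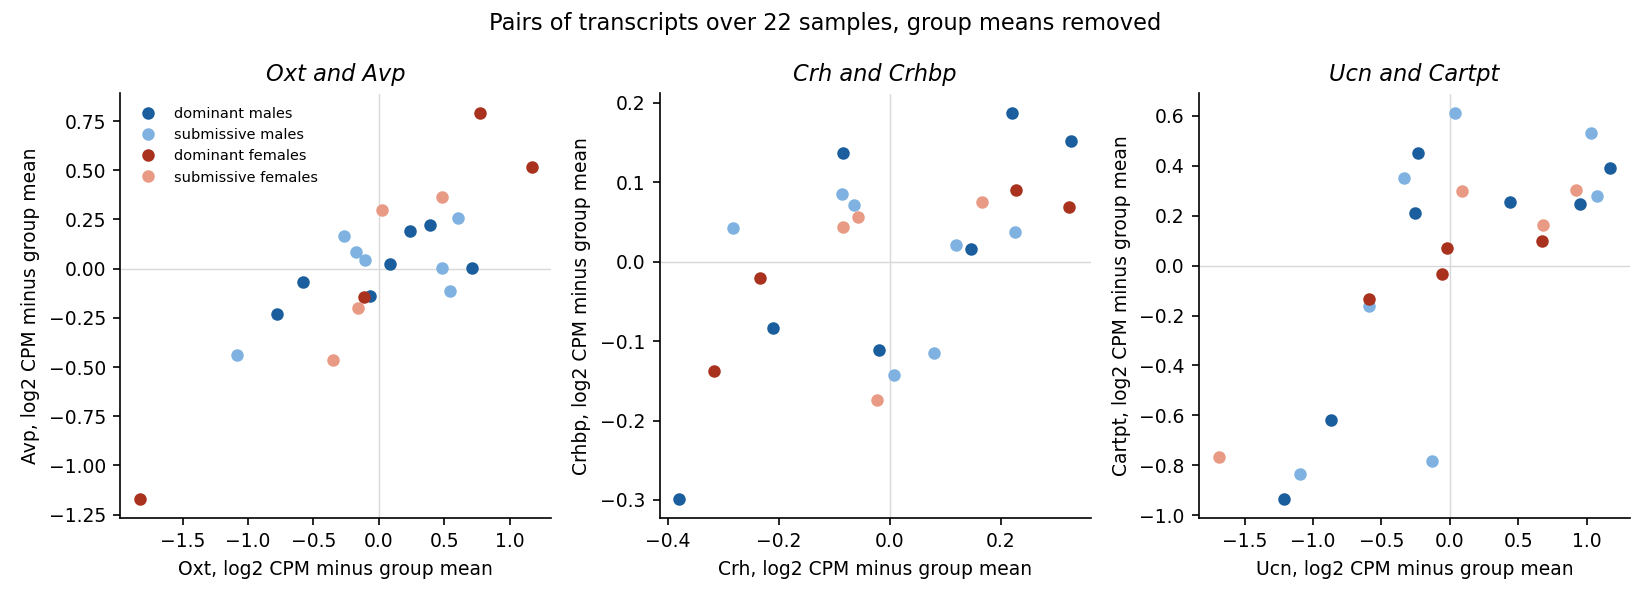
Deviations of log2 CPM from the mean of each rank and sex in 22 samples, for Oxt (horizontal) and Avp (vertical), Crh and Crhbp, and Ucn and Cartpt, with a point for each mouse, coloured by group. Pearson's r is 0.83, 0.56 and 0.74 over the 22 samples, and dominant female 3 is the lowest point in the panel of Oxt and Avp.

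The promoters of Oxt and Avp are shown because these neighbouring genes varied together. The set of RefSeq promoter sequences used (GRCm38.p6) holds 8 of the 9 members and not Crh, which does not show that RefSeq lacks it, and the 250 bases before each RefSeq start were searched on both strands for AGGTCA (the element bound by many nuclear receptors), TGACGTCA (the cAMP response element) and CACGTG (the E-box bound by CLOCK and BMAL1), and for the longest run shared by the Oxt and Avp windows. That run was CAGACATAAA, 31 to 22 bases before the start of Oxt and 18 to 9 bases before that of Avp, and it occurs in 18 of 32851 promoters of the same length (0.0548%). It was picked because both windows hold it, so this share does not test whether a shared run of this length is unusual. In Oxt, at chr2:130575919-130576168 of the plus strand, AGGTCA lay 185 to 180 bases before the start and its reverse complement TGACCT 166 to 161 bases before it, a motif held by 4607 promoters. In Avp, at chr2:130582589-130582838 of the minus strand, CACGTG lay 139 to 134 bases before the start, as in 6.02% of promoters. Capitals mark these motifs and the shared run.
Oxt: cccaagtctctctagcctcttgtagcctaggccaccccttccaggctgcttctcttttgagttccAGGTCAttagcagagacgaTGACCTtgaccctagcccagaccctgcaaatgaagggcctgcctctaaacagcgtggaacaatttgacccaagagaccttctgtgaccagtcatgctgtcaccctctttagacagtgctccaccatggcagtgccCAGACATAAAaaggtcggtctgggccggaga
Avp: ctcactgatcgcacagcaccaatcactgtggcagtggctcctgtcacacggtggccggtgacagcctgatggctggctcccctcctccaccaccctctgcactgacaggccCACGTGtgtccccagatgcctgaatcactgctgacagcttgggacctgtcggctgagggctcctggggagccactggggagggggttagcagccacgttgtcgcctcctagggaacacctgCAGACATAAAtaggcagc
The Ucn window held TGACGTCA 44 to 37 bases before the start, a motif found in 1.55% of promoters. Oxtr held AGGTCA and CACGTG once each and Crhbp held AGGTCA once, while the windows of Avpr1a, Crhr1 and Crhr2 held none of the motifs searched.

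The genes most like each member over the 22 samples were read from the same deviations, among 15232 genes and for the 7 members with at least 10 counts in every sample. The closest to Oxt were AW551984 (r = 0.87), Grb10 (0.87) and the orphan receptor Gpr165 (0.86). Closest to Avp were Trh, the precursor of thyrotropin-releasing hormone (0.85), Oxt (0.83) and Resp18 (0.81). The likeness of Avp to Trh came from the females, with 0.97 in females and 0.16 in males. Crh was most like Wdr6 (0.78), Gtf3a (0.78) and Cgref1 (0.76), and Oxtr most like Dok4 (0.76), Cebpa (0.73) and S100a6 (0.72). Crhr1 had its highest values with the proprotein convertase Pcsk6 (0.91), Mmp24 (0.90) and Lrig1 (0.89). For Crhr2 they were Xrcc5 (0.80), Tmem98 (0.79) and Wdr41 (0.77), and for Crhbp Nkain2 (0.83), Zwint (0.81) and Necab1 (0.81). These genes were picked for their likeness, and their r carries no test.

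The relatives of the members outside the list were at the edge of detection. Avpr2, the vasopressin receptor of the kidney, had at most 1 count in any sample, as did Ucn2, and the pituitary receptor Avpr1b had at most 3. Ucn3 had mean levels of 0.159 to 0.306 CPM over the 4 groups. None of these 4 genes passed the expression filter.

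Genes that process and release peptides were compared by list. In females 2 of 14 had an unadjusted p under 0.05 between ranks (10.5% of all genes), both lower in dominant mice and both uncalled by edgeR: Scg2, a granin of secretory granules, at -0.095 (SE 0.0309), and Pcsk1n, an inhibitor of the convertase that cuts peptide precursors, at -0.27 (SE 0.0716). In males 0 of 14 had an unadjusted p under 0.05. Between the tables, 7 of 14 passed the threshold (36.2% of all genes), 6 higher in females (18.4%) and 1 lower (17.8%), with medians of 0.068 for the list and -0.000053 for all genes tested. Among them Pcsk1n was higher in females by 0.72 (SE 0.0755) and Chgb, another granin, by 0.36 (SE 0.0254), while Cadps, which primes dense-core vesicles, was lower, at -0.24 (SE 0.0214). Between male cages 3 of 14 passed the threshold (5.89% of all genes). They were Lnpep, the aminopeptidase that degrades oxytocin and vasopressin (adjusted p = 0.0445 in edgeR), Cpe and Chga. With the split of the male cages in the model 0 genes passed, and the unadjusted p of these 3 was 0.187, 0.120 and 0.125 in edgeR. Between female cages 1 of 14 passed, Pcsk1n (adjusted p = 0.0338 in edgeR), beside 0.0740% of all genes.

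The receptors signal through the proteins Gq and Gs and the enzymes behind them, given here by 18 genes. Between female ranks 8 of 18 had an unadjusted p under 0.05 (10.5% of all genes), 7 higher and 1 lower in dominant mice, and 0 were called by edgeR. Gnaq, the alpha subunit of Gq, was at 0.11 (SE 0.0376), Adcy5, an adenylate cyclase, at 0.12 (SE 0.0395) and Gnas, the alpha subunit of Gs, at -0.067 (SE 0.0289). The median p of the list was 0.0613, beside 0.420 over all genes tested. In males 0 of 18 had an unadjusted p under 0.05. Between the tables, 10 of 18 passed the threshold (36.2% of all genes), 7 higher in females, such as Prkaca, a catalytic subunit of protein kinase A (0.38, SE 0.0363), and 3 lower, such as Gnaq (-0.23, SE 0.0347). Between cages 1 of 18 was called in males, Gna11 (adjusted p = 0.00260 in edgeR, lost with the split of the male cages in the model, where the unadjusted p was 0.0214), beside 5.89% of all genes, and 0 in females, beside 0.0740%, with 1 at an unadjusted p under 0.05, beside 5.11%.

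The stress axis feedback list holds 7 genes on which glucocorticoids act or that act on the pituitary. Between female ranks 2 of 7 had an unadjusted p under 0.05 (10.5% of all genes) and 0 were called by edgeR. The glucocorticoid receptor Nr3c1 stood at 267 ± 9.39 CPM in the 4 dominant females and at 248 ± 10.97 CPM in the 4 submissive ones (SD, n = 4 each), a log2 fold change of 0.10 (edgeR, SE 0.0356, adjusted p = 0.290). Pomc, the precursor of corticotropin, was at 1.51, 2.11, 1.11 and 2.29 CPM in the dominant females and at 2.02, 2.00, 6.51 and 2.14 CPM in the submissive ones. Its high value was that of submissive female 3, the sample with the pituitary genes, and the rank difference of -0.84 (edgeR, SE 0.344, adjusted p = 0.385) was -0.23 without it (adjusted p = 0.818), -0.15 within cages 1 and 2 and -1.34 within cages 3 and 4. In males 0 of 7 had an unadjusted p under 0.05. Between the tables, 3 of 7 passed the threshold (36.2% of all genes): Fkbp5, a glucocorticoid-induced gene, was higher in females by 0.55 (SE 0.0798), and the mineralocorticoid receptor Nr3c2 and the PACAP receptor Adcyap1r1 were lower, at -0.18 (SE 0.0294) and -0.34 (SE 0.0371).

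The remaining tissue lists were compared between the tables and cages in the same way. Between the tables, Gal of the hypothalamus list (-0.67), Slc6a4 of the raphe list (-1.04) and Alas2, the heme synthesis gene of the blood list (-0.75), were lower in females and passed the threshold. The interneuron marker Lhx6 was higher in females (0.42), as were 3 of 8 cerebellum genes (18.4% of all genes), while 2 of 8 choroid plexus genes were lower (17.8% of all genes) and the Edinger-Westphal list had 0 calls, with 1 gene at an unadjusted p under 0.05. Of the 10 brain genes, 3 were called higher and 1 lower (18.4% and 17.8% of all genes). Between cages, 2 of 4 raphe genes tested passed in males (5.89% of all genes), Tph2 and Slc6a4 (adjusted p = 0.0328 and 0.00657 in edgeR). In females 1 of 4 passed (0.0740% of all genes), Tph2 (adjusted p = 0.0401 in edgeR). Between male cages 2 of 10 brain genes passed as well (5.89% of all genes). With the split of the male cages in the model these male calls are lost after adjustment, although the F statistics of Slc6a4 and Tph2 were 14.9 and 8.69 (unadjusted p = 4.52e-05 and 0.000730, adjusted p = 0.396 and 0.965 in edgeR). Between ranks, the lists of interneurons, cerebellum, brain and blood had 0 calls in edgeR in either table, with 1 of 8 interneuron genes, 1 of 10 brain genes and Alas2 at an unadjusted p under 0.05 in females (10.5% of all genes) and 0 genes in males (1.32%). In edgeR, Alas2 had a female rank difference of 0.65 (SE 0.163, adjusted p = 0.149), and the cerebellum genes were lower in dominant males in 8 of 8, with dominant male 1 lowest in their sum. The pituitary list had 0 of 9 genes past the expression filter.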

How the data were processed

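Total RNA of the right hemisphere of 22 mice was sequenced from stranded, ribosome-depleted libraries with reads of 85 bases. The deposited values are read counts per gene, made by the authors with cutadapt 1.15, STAR 2.6.0a on mm10 and featureCounts 1.6.2, with no normalization; the strand setting and the treatment of multiply mapped reads are not named. The other deposited column, Length, holds the exon bases per gene that the authors' counting wrote, and RPKM uses it. Groups came from the sample titles and cages from the library names.

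Each comparison was fitted over all genes with edgeR 4.0.16 in R 4.3.3 (quasi-likelihood F-test, TMM, filterByExpr with min.count 10 and min.total.count 15), with Benjamini-Hochberg adjustment over all genes tested and a threshold of 0.05. Rank was tested within each table, the difference of the rank effects and the table difference over 22 samples, and the cage terms within each table with rank in the model. Single members were also compared by exact permutation tests of log2 CPM (prior count 2, two-sided), without adjustment, and 3 relations by permutation within groups (100000 permutations, or all orders where fewer). Intervals of single counts, those of a count of 0 included, are exact Clopper-Pearson intervals at 95% and cover counting error only.

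The alternatives were DESeq2 1.42.0, its size factors, no TMM, no filter, a minimum count of 50, the cage as a replicate block, all 22 samples in a single fit, a prior count of 0.5 and leaving out each sample. Between the tables, the replicate block was a fit of counts summed per cage. The fits within male cages 1 to 4 and 5 to 7, within female cages 1 and 2 and cages 3 and 4, and without female cage 3 were chosen after seeing the data, as were the fit with the split of the male cages in the model and the relations tested with both mice of a cage moved together. The members and lists (family relatives, peptide processing, receptor signalling, stress axis feedback, hypothalamus, pituitary, choroid plexus, cerebellum, serotonergic raphe, Edinger-Westphal, interneurons, brain and blood) were chosen with earlier results of these data known. The Edinger-Westphal list holds Ucn itself, and Gad1 is in the lists of interneurons and brain. Genes named beside these are the 3 most alike to each member with at least 10 counts in every sample. Positions are from GENCODE and promoter sequences from RefSeq (GRCm38.p6).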

Additional observations from a re-analysis of the deposited data

Results flagged for a closer look

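In 2 of 36 groups of member values and 7 of 40 groups of summed marker lists, a sample lay far from the others of its group, measured as its gap to the nearest sample over the group's range; chance gives about 1 in 20. Dominant female 2 had 5.18 CPM of the oxytocin receptor Oxtr against 7.06 to 7.40 CPM in the other dominant females. Submissive female 3 had 15.7 CPM of the binding protein Crhbp against 18.3 to 18.7 CPM in its group. The same mouse had a sum of 16.4 CPM over the pituitary genes against 0.357 to 0.438 CPM, and dominant male 3 had 1.16 CPM against 0.0810 to 0.379 CPM. The summed family relatives (Avpr1b, Avpr2, Ucn2 and Ucn3) were at 0.628 CPM in dominant male 6 against 0.228 to 0.364 CPM. The cerebellum sum of submissive male 4 was 542.4 CPM against 850.4 to 983.5 CPM, and its interneuron sum was 1000.1 CPM against 1041.8 to 1064.3 CPM. Dominant male 1 had an interneuron sum of 951.5 CPM against 1029.5 to 1047.7 CPM. The Edinger-Westphal sum of submissive male 1 was 119.9 CPM against 132.3 to 141.4 CPM. Of this sum Cck made up 109.6 CPM, so it reads mainly the level of that gene.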

How the results depend on the processing

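The counts of 0 genes called between male ranks and in the difference of rank effects, and the table count within 1.5 times, held in all alternatives run, as did the members' levels without TMM. Between female ranks, 14 genes were called, against 77 with DESeq2, 6 without TMM, 84 without the filter, 2 with a minimum count of 50, 36 with the replicate block, 0 in the fit of 22 samples (579 at an unadjusted p under 0.05 in edgeR), 5 within cages 1 and 2, 120 within cages 3 and 4, and 0 to 77 when single mice were left out (0 without submissive female 1 or 3, 77 without dominant female 2). Between female cages, 11 were called, against 5 with DESeq2, 99 without the filter, 6 with a minimum count of 50 and 2 to 31 without single cages; between male cages 868, with 375 without cage 6, 1841 without cage 1 and 0 (634 at an unadjusted p under 0.05 in edgeR) with the split of cages 1 to 4 and 5 to 7 in the model.

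Exact permutation tests with p under 0.05 numbered 0 in males and 1 in females, 0 to 2 in each when single mice were left out, and 0 in females paired within cages. The smallest paired p that 4 cages allow in this exact permutation test is 0.125, so the last count could only be 0. Reversed fitted rank differences were, in males, Crhbp at -0.061 within cages 1 to 4, and Oxt at 0.19 and Avp at 0.011 within cages 5 to 7; in females, Oxtr at -0.097 within cages 1 and 2, and Crhr1 at -0.063 within cages 3 and 4. Leaving out single mice turned male differences of Crhr1 (-0.068 to 0.021), Oxtr (-0.083 to 0.056) and Crhr2 (-0.0069 to 0.16), the female one of Oxtr (-0.059 to 0.12), the differences of rank effects of Crh (-0.064 to 0.15), Oxtr (-0.032 to 0.15) and Avp (-0.52 to 0.048), and the table differences of Oxtr (-0.070 to 0.025) and Avp (-0.021 to 0.26). In permutation values it turned, in males, Avp (-0.12 to 0.00080), Oxtr (-0.067 to 0.073), Crhr1 (-0.076 to 0.021), Crhr2 (-0.0082 to 0.13), Crhbp (-0.0043 to 0.077) and Ucn (-0.0099 to 0.39), and, in females, Oxtr (-0.053 to 0.14).

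Relations that missed 0.05 in the test of Pearson's r were Oxt with Avp in male cages 1 to 4 (r = 0.51) and 5 to 7 (0.82), Ucn with Cartpt there (0.78 and 0.67), and Crh with Crhbp in males (0.54), females (0.63), male cages 1 to 4 (0.40) and 5 to 7 (0.50), and without the 2 farthest samples (0.37). Spearman's rho of Ucn with Cartpt in male cages 1 to 4 was 0.88 and passed (exact permutation test, p = 0.0104, adjusted p = 0.0312). Subsets hold fewer samples; beyond that the cause was not tested. At this depth Ucn and Avpr1a rest on few counts per sample.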
